A study of Homo sapiens with 6 samples.

Results

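The genes described here encode the enzymes that edit nucleic acids by deamination in human cells: the APOBEC3 cytidine deaminases (APOBEC3A, APOBEC3B, APOBEC3C, APOBEC3D, APOBEC3F, APOBEC3G and APOBEC3H) and the adenosine deaminases ADAR and ADARB1. The rule that chose them names genes and uses no measured value, and each of the 9 had 1 row among the 62710 Ensembl genes measured. RNA-seq was performed on HT1080, an established human fibrosarcoma cell line, in 6 libraries. Of these, 3 came from cells left untreated and 3 from cells kept for 24 h with 20 ng/mL of IFNβ, a type I interferon. The sample labels call the cytokine human IFNβ, and so do the study's methods on cell treatment for its human lines, whereas its RNA-seq methods name mouse IFNβ for HT1080 and a mouse line together. No genetic change is named for any library, and all come from a single cell line. The methods state independent biological replicates for the in vitro work in general, but the labels do not say which cultures the libraries came from, so p-values measure only the spread between these libraries.

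APOBEC3 enzymes convert cytidine to uridine in single-stranded DNA. They are known as restriction factors that mutate the DNA of retroviruses while it is copied, and APOBEC3A and APOBEC3B are also known as sources of mutations in tumor genomes. ADAR and ADARB1 convert adenosine to inosine in double-stranded RNA. ADAR is made as a longer, interferon-inducible protein (p150) and a shorter constitutive protein (p110), and its editing keeps the cell's own double-stranded RNA from being taken for viral RNA by sensors such as MDA5 and PKR. ADARB1, also called ADAR2, is best known for recoding glutamate receptor transcripts in neurons.

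The APOBEC3 genes lie side by side on the plus strand of chromosome 22 and carry near copies of the same coding sequence, which bears on how reads can be assigned to them. The catalytic motif of the family holds a histidine and a glutamate, then a proline with a cysteine, then a second cysteine, and coordinates a zinc ion. APOBEC3A, APOBEC3C and APOBEC3H hold this motif 1 time, and APOBEC3B, APOBEC3D, APOBEC3F and APOBEC3G hold it 2 times. The DNA that encodes it is shown for the GENCODE release 29 transcript with the longest coding sequence (GRCh38, plus strand, 5′ to 3′), with the codons of histidine, glutamate, proline-cysteine and cysteine in capitals. Each stretch lies within 1 coding exon.
APOBEC3A, chr22:38961420-38961530: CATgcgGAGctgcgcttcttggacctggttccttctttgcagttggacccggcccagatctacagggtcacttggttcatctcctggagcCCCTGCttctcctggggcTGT
APOBEC3B motif 2, chr22:38991365-38991475: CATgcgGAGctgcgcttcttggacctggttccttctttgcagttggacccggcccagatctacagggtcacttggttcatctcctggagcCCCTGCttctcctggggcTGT
APOBEC3B motif 1, chr22:38985833-38985937: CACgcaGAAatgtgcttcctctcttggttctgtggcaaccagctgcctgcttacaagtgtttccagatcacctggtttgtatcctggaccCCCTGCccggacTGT
APOBEC3F motif 1, chr22:39044962-39045066: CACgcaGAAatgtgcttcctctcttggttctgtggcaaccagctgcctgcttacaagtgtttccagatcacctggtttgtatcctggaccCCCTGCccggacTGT
APOBEC3F motif 2, chr22:39052095-39052199: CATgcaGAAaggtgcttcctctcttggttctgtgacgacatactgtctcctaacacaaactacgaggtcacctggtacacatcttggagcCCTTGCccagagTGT
APOBEC3C, chr22:39017787-39017891: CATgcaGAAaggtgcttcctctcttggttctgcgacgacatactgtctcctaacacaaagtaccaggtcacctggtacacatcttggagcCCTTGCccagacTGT
APOBEC3G motif 2, chr22:39086312-39086416: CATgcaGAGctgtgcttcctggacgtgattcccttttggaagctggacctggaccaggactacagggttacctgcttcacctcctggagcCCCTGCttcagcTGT
APOBEC3H, chr22:39101246-39101350: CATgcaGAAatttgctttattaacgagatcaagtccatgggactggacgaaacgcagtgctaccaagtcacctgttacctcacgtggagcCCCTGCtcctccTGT

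The APOBEC3A stretch and motif 2 of APOBEC3B were identical over all 111 bases. Motif 1 of APOBEC3B and motif 1 of APOBEC3F were identical over all 105 bases, and so were motif 2 of APOBEC3D and motif 2 of APOBEC3F. APOBEC3C differed from motif 2 of APOBEC3F at 4 of 105 bases. APOBEC3H and motif 2 of APOBEC3G shared 65 of 105 bases, and each was the closest match of the other among the stretches of that length. The reads of the study were 150 bases long. Of the 150-base windows along the transcript of APOBEC3D, 84.0% also occurred in transcripts of other genes. This share was 19.5% for APOBEC3B, 6.6% for APOBEC3F, 5.7% for APOBEC3G and 5.6% for APOBEC3A, and it was 0 for APOBEC3C, APOBEC3H, ADAR and ADARB1. For APOBEC3D, 1972 of the 1999 shared windows were in AL022318.4, and for APOBEC3B, 251 of 331 were in APOBEC3A. These gene models share exon bases on the same strand, so the shares are not all copies between separate loci. How the authors assigned reads that fit several genes is not given in the sources used here, so the values of APOBEC3A, APOBEC3B and APOBEC3D in particular are uncertain.

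ADAR and ADARB1 lie on different chromosomes and share the catalytic center of the family. The bases around their histidine and glutamate codons (capitals) show how far they differ. The ADAR stretch is on the minus strand of chr1:154588658-154589412 and is joined across an intron, and the ADARB1 stretch is on the plus strand of chr21:45182677-45182736.
ADAR: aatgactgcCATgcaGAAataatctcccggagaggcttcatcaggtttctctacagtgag
ADARB1: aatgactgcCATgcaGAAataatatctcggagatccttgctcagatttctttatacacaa
Of the 60 bases, 47 were identical, and of the 20 residues they encode, 15.

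The values are FPKM, fragments scaled by the length of the gene and by the fragments of the library, as the authors computed them. For all but 1 of the 35303 genes above 0, the values were whole multiples of what 1 fragment is worth, at the release 29 exon length for 16324 genes and at another length for 18978. This gave between 22848104 and 32915500 fragments per library and the number of fragments behind each value. Many lengths were tried, so for a gene above 0 in only 1 library some length would fit almost any value. The match is no check of such genes. As a check of the cell line, the 9 fibroblast and mesenchymal markers summed to between 966 and 1020 FPKM in untreated libraries. They were uneven: VIM stood at 399 ± 23.9 FPKM and SPARC at 267 ± 8.76 FPKM in untreated cells (S.D., n = 3). S100A4 had only 2.68 ± 0.647 FPKM there (S.D., n = 3), and THY1 was under the filter of 0.1 FPKM. Of the 11 immune markers only CSF1R reached a mean of 0.1 FPKM, and the summed immune markers did not exceed 1.32 FPKM in any library, with PTPRC at no more than 6 fragments in any library. Among the 6 epithelial markers the sum moved from between 79.4 and 81.6 to between 134 and 140 FPKM, nearly all of it from the keratins KRT8 and KRT18, while EPCAM had at most 2 fragments. The 7 proliferation genes summed to between 532 and 549 FPKM in untreated libraries and to between 472 and 476 FPKM after IFNβ. Whether these shifts had a part in the results was not tested. In bulk RNA, a change in the share of expressing cells and a change in RNA per cell cannot be told apart.

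Genes with a mean of at least 0.1 FPKM over the 6 libraries were tested with limma on log2(FPKM + 0.1). Genes were called differentially expressed (DEGs) where their Benjamini-Hochberg adjusted p-value over all 20716 genes tested was under 0.05 and their log2 fold change was at least 1 in either direction. Of the 9 editing-enzyme genes, 7 were tested, and 4 were called higher after IFNβ: ADAR, APOBEC3F, APOBEC3G and APOBEC3H. Among all genes tested, 3.49% were called higher. APOBEC3H passed the filter only through its values after IFNβ, and its call depended on the processing. APOBEC3B was higher after IFNβ by an amount beyond the spread of the libraries but under the fold threshold. APOBEC3C and ADARB1 were not called. No editing-enzyme gene was called lower by limma, where 0.739% of all genes tested were. Limma-voom on the recovered fragments called none lower either, where 208 of the 20716 genes were. At an unadjusted p-value under 0.05, 0 of the 7 were lower, where 22.0% of all genes tested were by limma. At an adjusted p-value under 0.05 with no fold threshold there were 5 of the 7, all higher, where 32.7% of all genes tested passed in either direction. Of the 20716 genes tested, 3153 were higher at that threshold. In 5 of the 7 tested genes, each IFNβ library lay above each untreated library, a pattern that 22.3% of all genes tested had. The median log2 fold change was 1.10 over the 7 tested genes, which is the value of APOBEC3H, and 0.00 over all genes tested. With a pseudocount of 1 the median of the 7 was 0.57.

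**Figure D1:**
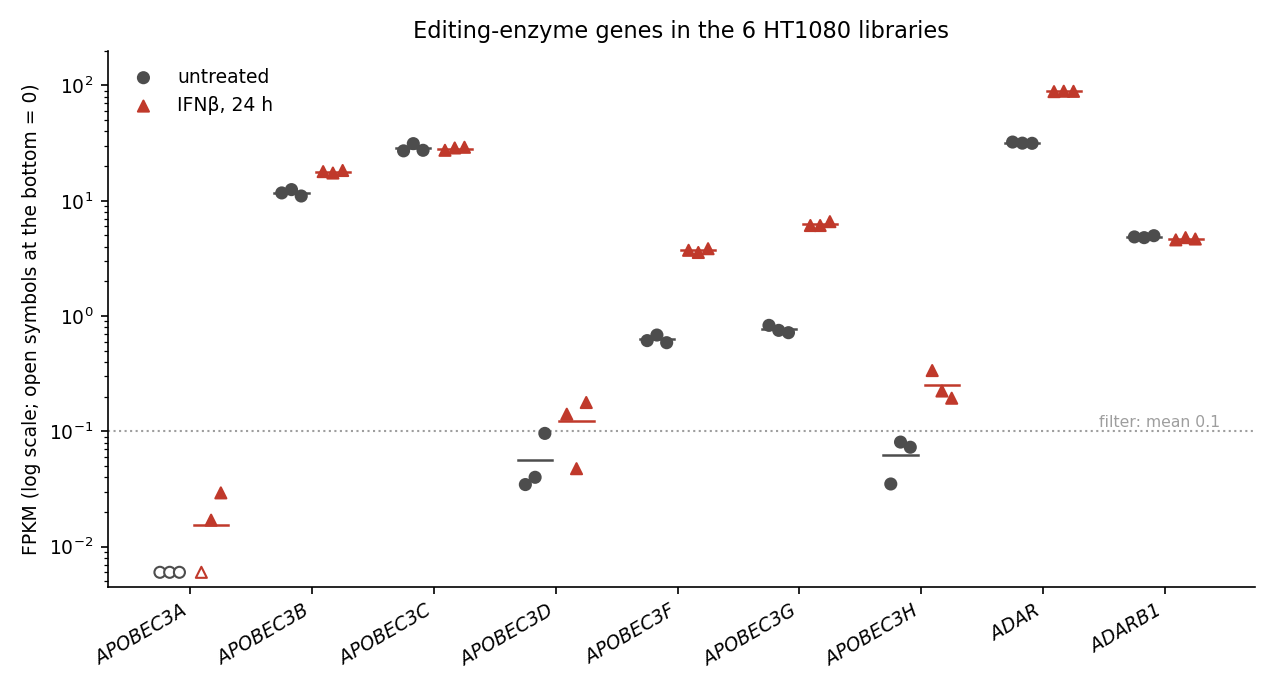
FPKM on a log scale of the 9 editing-enzyme genes in 3 untreated libraries (circles) and 3 IFNβ libraries (triangles), with the group mean as a line, open symbols for values of 0 and the filter of 0.1 FPKM dotted. ADAR moves from about 31.8 to 88.8 FPKM, APOBEC3F and APOBEC3G leave the range below 1 FPKM, and the group means are 28.6 and 28.4 FPKM for APOBEC3C and 4.88 and 4.68 FPKM for ADARB1.

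ADAR (ENSG00000160710, minus strand of chromosome 1 from 154582057 to 154628013, GRCh38) had the highest level of the 9 genes in both groups. It stood at 32.3, 31.6 and 31.5 FPKM in the untreated libraries and at 88.4, 89.1 and 88.9 FPKM after IFNβ. The groups were far apart, and the libraries of each group were nearly equal. Its mean was 2.79 times higher after IFNβ, and on the log2 scale it rose by 1.48 with a standard error of 0.02 (95% confidence interval 1.44 to 1.52, limma adjusted p = 3.5e-08). The values rested on 33202 fragments in the untreated and 92023 in the IFNβ libraries. The coefficient of variation between libraries was 1.31% in untreated cells and 0.367% after IFNβ, where counting error alone gives 0.951% and 0.571%. ADAR had been above 93.6% of the tested genes in untreated cells and ranked 346 of 20716 by level after IFNβ. By log2 fold change it ranked only 561, but by the difference in FPKM, 57.0, it ranked 56. Release 29 lists ADAR transcripts that encode 1226 residues, such as one that starts at position 154608248, and transcripts that encode 931 residues, most of which start near position 154628013. The table has 1 value per gene, so the forms were not told apart.

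ADARB1 (ENSG00000197381, plus strand of chromosome 21 from 45073853 to 45226560) had 4.86, 4.79 and 4.98 FPKM in the untreated libraries and 4.58, 4.79 and 4.66 FPKM after IFNβ. The highest IFNβ library and the lowest untreated library were equal to 3 digits. IFNβ libraries that were all below the untreated ones, as here by a narrow margin, were found for 24.3% of all genes tested. The log2 fold change was -0.06 (95% confidence interval -0.15 to 0.03, limma adjusted p = 0.27), which places the fold between 0.903 and 1.02 at 4297 and 4073 fragments. The ratio of ADAR to ADARB1 was 6.52 ± 0.162 in untreated cells and 19.0 ± 0.356 after IFNβ (S.D., n = 3 each). ADAR accordingly made up 86.4% to 86.9% of their summed FPKM in the untreated libraries and 94.9% to 95.1% after IFNβ. Ratio and shares depend on the gene lengths the authors divided by. With release 29 exon lengths, ADAR averaged 40.2 FPKM and ADARB1 5.0 FPKM in untreated cells, and 112 and 4.79 FPKM after IFNβ.

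APOBEC3G (ENSG00000239713, chromosome 22 from 39077005 to 39087743), the family member best known for restricting HIV-1 that lacks Vif, showed the largest fold of the tested members. It had 0.831, 0.752 and 0.718 FPKM in the untreated libraries and 6.10, 6.10 and 6.59 FPKM after IFNβ. All IFNβ values lay several times above all untreated values, from 349 fragments in the untreated and 2851 in the IFNβ libraries. The mean was 8.16 times higher after IFNβ. On the log2 scale the rise was 2.88 with a standard error of 0.07 (limma adjusted p = 1.2e-06), rank 120 of 20716.

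APOBEC3F (ENSG00000128394, chromosome 22 from 39040604 to 39053910), which also restricts Vif-deficient HIV-1, had 0.613, 0.685 and 0.588 FPKM in the untreated libraries and 3.72, 3.56 and 3.84 FPKM after IFNβ. The groups again did not overlap. The mean was 5.90 times higher. On the log2 scale the rise was 2.39 with a standard error of 0.08 (limma adjusted p = 4.7e-06), rank 178 of 20716. The fragments numbered 280 in untreated and 1640 in IFNβ libraries.

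APOBEC3H (ENSG00000100298, chromosome 22 from 39097224 to 39104067), whose protein stability differs between human haplotypes, rested on 1, 3 and 3 fragments without treatment and on 13, 7 and 7 with IFNβ. This corresponds to 0.0350, 0.0808 and 0.0729 FPKM and to 0.337, 0.224 and 0.194 FPKM. The IFNβ values were all higher, but each rested on few fragments. The ratio of pooled fragments, scaled by library size, was 3.89 (exact 95% interval 1.65 to 10.6, counting error only). The fitted difference was 1.10 on the log2 scale with a standard error of 0.28 (limma adjusted p = 0.026). The call was lost without untreated replicate 1 (log2 fold change 0.97, limma adjusted p = 0.061) and without IFNβ replicate 1 (0.93, limma adjusted p = 0.053), and the estimate ranged from 0.23 with a pseudocount of 1 to 1.87 with a pseudocount of 0.01.

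APOBEC3B (ENSG00000179750, chromosome 22 from 38982347 to 38992804), a nuclear deaminase, had 11.7, 12.5 and 11.0 FPKM in the untreated libraries and 17.9, 17.4 and 18.3 FPKM after IFNβ. No untreated library reached the lowest IFNβ library. The mean was 1.52 times higher, and the log2 fold change of 0.60 (95% confidence interval 0.49 to 0.72, limma adjusted p = 2.1e-04) stayed under the fold threshold. The interval places the fold between 1.4 and 1.64. The values rested on 1898 and 2873 fragments, which may include some from the identical stretches described above. Of its exon bases, 18.4% also belong to the APOBEC3A gene model of release 29 and 12.9% lie opposite exons of APOBEC3B-AS1, which was listed at no more than 0.0579 FPKM.

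APOBEC3C (ENSG00000244509, chromosome 22 from 39014083 to 39020352) was the most abundant APOBEC3 transcript. It had 27.1, 31.3 and 27.4 FPKM in the untreated libraries and 27.4, 28.7 and 29.1 FPKM after IFNβ. The groups overlapped. The log2 fold change was -0.01 (95% confidence interval -0.15 to 0.13, limma adjusted p = 0.93), which places the fold between 0.90 and 1.10. The sign of this estimate flipped under rescaling to equal totals, by median ratio or by quantiles.

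APOBEC3A and APOBEC3D were under the filter. APOBEC3A (ENSG00000128383, chromosome 22 from 38952741 to 38992778 in release 29, whose model runs through APOBEC3B), a deaminase of myeloid cells and keratinocytes, was listed at 0 without treatment and had 0, 1 and 2 fragments with IFNβ. No fold is given at this depth. APOBEC3D (ENSG00000243811, chromosome 22 from 39021113 to 39033276) rested on 2, 3 and 8 untreated fragments and on 11, 3 and 13 with IFNβ. The groups overlapped, and the ratio of pooled fragments was 2.10 (exact 95% interval 1.04 to 4.42, counting error only). Of the exon bases of APOBEC3D, 83.2% also belong to AL022318.4, a gene model on the same strand that was listed at 0 in all libraries.

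The responses of the members were also set against each other as log2 ratios within each library, over 5 pairs. APOBEC3G relative to APOBEC3F had log2 ratios of 0.44, 0.14 and 0.29 in untreated and of 0.71, 0.78 and 0.78 in IFNβ libraries, so APOBEC3G gained 0.47 on APOBEC3F. APOBEC3G gained 2.42 on APOBEC3B and 3.04 on APOBEC3C, and ADAR gained 1.54 on ADARB1. In these 4 pairs the groups did not overlap, and the exact two-sided permutation test gave p = 0.10 for each, the smallest that 3 libraries against 3 allow (Benjamini-Hochberg adjusted p = 0.12). The ratio of APOBEC3G to APOBEC3H overlapped between the groups (exact two-sided permutation p = 0.20, adjusted p = 0.20).

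By deposited level per gene length, the order in untreated cells was ADAR, APOBEC3C, APOBEC3B, ADARB1, APOBEC3G, APOBEC3F, APOBEC3H, APOBEC3D and APOBEC3A. Except for APOBEC3H and APOBEC3D, the ranges of neighbors in this order did not overlap. After IFNβ, APOBEC3G at 6.26 ± 0.283 FPKM stood above ADARB1 at 4.68 ± 0.104 FPKM (S.D., n = 3 each), and the rest of the order was as before. The levels depend on the gene length the authors divided by, which was 5215 bases for APOBEC3F against 3242 bases of exon in release 29, and 5375 bases for APOBEC3G against 1834 bases in its longest-coding transcript. With the release 29 exon lengths, APOBEC3F stood above APOBEC3G in untreated cells, and after IFNβ they overlapped at 5.96 ± 0.227 and 6.19 ± 0.279 FPKM. With the lengths of the longest-coding transcripts, an alternative chosen after seeing the data, APOBEC3G reached 18.3 ± 0.828 FPKM after IFNβ and overlapped with APOBEC3B at 18.4 ± 0.430 FPKM (S.D., n = 3 each). A gene's ratio of mean FPKM between groups does not depend on this length. The fitted log2 fold change can, through the 0.1 FPKM added before the logarithm.

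The make-up of the APOBEC3 transcripts shifted with IFNβ. The summed FPKM of the 7 genes was 40.4, 45.3 and 39.9 without treatment and 55.6, 56.0 and 58.2 with IFNβ, 1.35 times higher by the means. APOBEC3C made up 67.1%, 69.1% and 68.7% of it in the untreated libraries and between 49.2% and 51.1% after IFNβ. APOBEC3B held 28.1 ± 0.898% and 31.6 ± 0.588%, but with the longest-coding transcript lengths its share went the other way, from 28.4 ± 0.779% to 25.9 ± 0.457%. APOBEC3F and APOBEC3G together went from 3.34 ± 0.210% to 17.6 ± 0.347% (S.D., n = 3 each). Of the rise in the sum, APOBEC3B brought 41.6%, APOBEC3G 37.3% and APOBEC3F 20.9%, so the gene with the smallest of these folds brought the largest part. This last order turned with the gene length: with the longest-coding transcript lengths, APOBEC3G brought 56.6%, APOBEC3B 22.1% and APOBEC3F 20.9%. The share of APOBEC3C after IFNβ was 46.7% with release 29 exon lengths and 37.5% with transcript lengths, below its untreated share in each case.

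**Figure D2:**
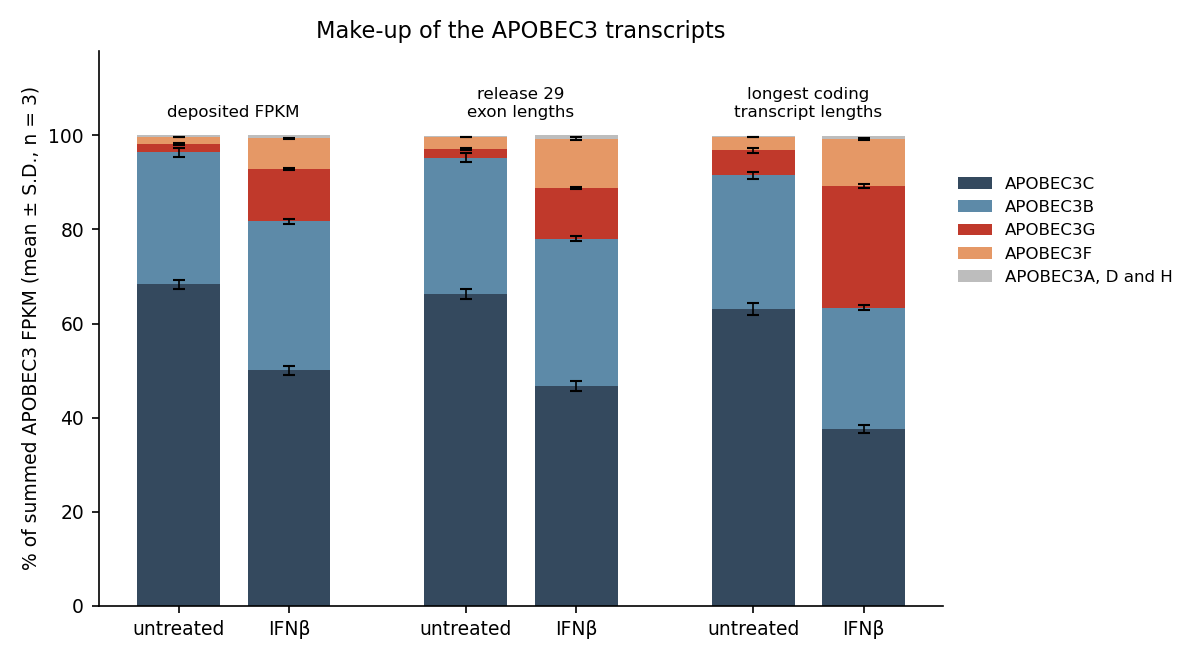
Percent of the summed APOBEC3 FPKM (mean ± S.D., n = 3) held by each gene in untreated and IFNβ libraries, with the deposited FPKM and with FPKM recomputed from 2 other gene lengths. With deposited FPKM the share of APOBEC3C goes from 68.3% to 50.1% and that of APOBEC3G from 1.84% to 11.1%, and with transcript lengths APOBEC3G reaches 25.8%.

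None of the flanking coding genes tested was called by limma. Upstream of the APOBEC3 cluster, CBX6 had 23.9 ± 0.421 FPKM in untreated cells and 19.3 ± 0.215 FPKM after IFNβ (S.D., n = 3 each). Its log2 fold change of -0.30 passed the p threshold but not the fold threshold (limma adjusted p = 1.4e-04). The same held for RPL3 downstream of the cluster (-0.31, limma adjusted p = 3.5e-05) and for PMVK beside ADAR (-0.44, limma adjusted p = 0.0038). Downstream, CBX7, 16.1 kb from APOBEC3H, averaged 0.155 and 0.160 FPKM. UBE2Q1, 23 kb from ADAR, averaged 16.8 ± 0.436 and 16.7 ± 0.0632 FPKM, and POFUT2, 37.4 kb from ADARB1, averaged 8.37 ± 0.315 and 8.88 ± 0.171 FPKM (S.D., n = 3 each). The nearest coding gene to ADAR, CHRNB2, averaged under 0.2 FPKM in both groups, and KCNN3 was under the filter.

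**Figure D3:**
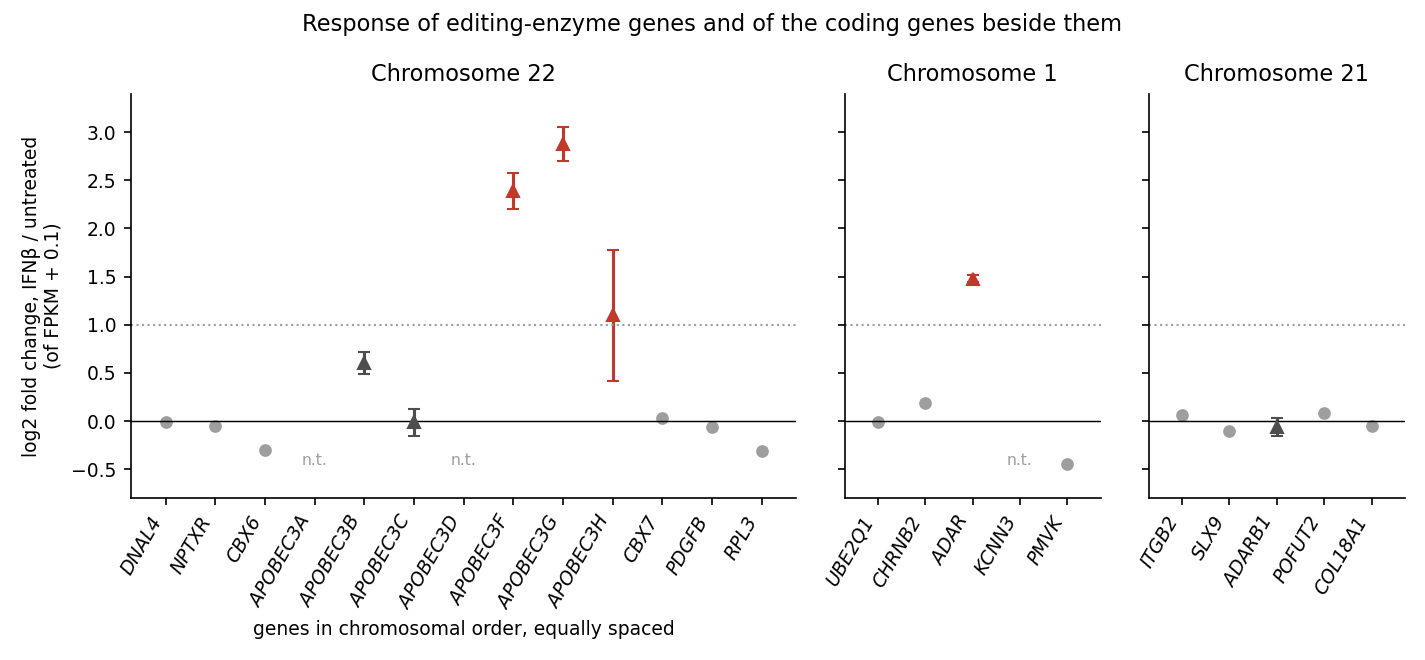
Log2 fold change (IFNβ over untreated, of FPKM + 0.1) of the editing-enzyme genes (triangles with 95% confidence intervals, red where called higher) and of flanking coding genes (grey), in chromosomal order without scale, with n.t. for genes under the filter and the fold threshold dotted. APOBEC3F at 2.39, APOBEC3G at 2.88 and ADAR at 1.48 stand above flanking genes that lie between -0.44 and 0.19.

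Genes with related roles were read from lists set by role. Among all genes tested, 19.6% were higher and 22.0% lower at an unadjusted p-value under 0.05, against which the counts of the lists at that threshold are to be read. Among the other APOBEC-family deaminases and APOBEC1 cofactors, 2 of 7 were tested and none was called by limma or limma-voom (1 lower at an unadjusted p-value under 0.05, 0 higher). APOBEC1, which edits the APOB transcript in the gut, was listed at 0 in all libraries, and SYNCRIP, a cofactor of APOBEC1, averaged 21.1 ± 0.336 and 20.3 ± 0.222 FPKM (S.D., n = 3 each). Of the other adenosine deaminases of RNA, 3 of 6 were tested, the tRNA deaminases ADAT1, ADAT2 and ADAT3. None was called by limma or limma-voom. All 3 were lower at an unadjusted p-value under 0.05, with log2 fold changes between -0.41 and -0.16. They also passed the adjusted threshold without the fold threshold (limma adjusted p = 0.0089 to 0.034). Of the 20716 genes tested, 3625 were lower at that threshold. ADARB2, the family member without known activity, was under the filter.

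Of the sensors and effectors of double-stranded RNA, several of which ADAR editing is known to hold in check, 9 of 11 were called higher. Among all genes tested, 3.49% were. The median log2 fold change of the 11 was 4.85. Of the 9, RIGI and ZBP1 passed the filter only through their values after IFNβ. RIGI had 0.0752 ± 0.0101 FPKM in untreated libraries (S.D., n = 3), and ZBP1 was listed at 0 there. IFIH1, which encodes MDA5, increased from 1.48 ± 0.189 to 58.0 ± 0.823 FPKM (S.D., n = 3 each). OAS2, an oligoadenylate synthetase, had the largest log2 fold change of the list, 8.20 (limma adjusted p = 1.2e-09). OASL followed with 6.72 (limma adjusted p = 1.5e-07) and OAS1 with 6.39 (limma adjusted p = 1.2e-09). MAVS, the adaptor of the RIG-I-like receptors, averaged 8.97 and 8.65 FPKM and was not called.

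Of the other retroviral restriction factors, 9 of 10 were tested and 6 were called higher, where 3.49% of all genes tested were. The median log2 fold change of the 9 was 1.83. At an adjusted p-value under 0.05 with no fold threshold, 7 were higher and 2 lower. Of the 20716 genes tested, 3153 were higher and 3625 lower at that threshold. The lower ones were SERINC3 (-0.15, limma adjusted p = 0.0012) and SERINC5 (-0.60, limma adjusted p = 0.0011). SAMHD1, which depletes deoxynucleotides, increased from 2.61 ± 0.108 to 43.6 ± 0.610 FPKM, and HERC5, an ISG15 ligase, from 0.366 ± 0.0246 to 24.1 ± 0.872 FPKM (S.D., n = 3 each). BST2, or tetherin, had 1 to 3 fragments without treatment and 264 ± 2.48 FPKM after IFNβ, and MX2 had 5 to 8 fragments and then 43.3 ± 0.202 FPKM (S.D., n = 3). Both BST2 and MX2 passed the filter only through their values after IFNβ. Among the subunits of ISGF3, the factor that type I interferons activate, STAT2 rose to 40.6 ± 0.781 FPKM from 3.88 ± 0.0940, and IRF9 to 1.53 ± 0.195 FPKM from 0.136 ± 0.0186 (S.D., n = 3 each).

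The enzymes that process uracil and abasic sites left by cytidine deamination held no DEG among 10 tested, by limma or limma-voom. At an unadjusted p-value under 0.05, 2 were higher and 5 lower, where 19.6% and 22.0% of all genes tested were. With no fold threshold, 1 was higher and 5 lower at an adjusted p-value under 0.05. Of all genes tested, 32.7% passed that in either direction, 3153 of the 20716 higher and 3625 lower. UNG had the largest decrease of the list (log2 fold change -0.57, limma adjusted p = 2.7e-05). XRCC1 was the higher gene (0.51, limma adjusted p = 0.0031). None of the 13 DREAM and RB complex genes was called, a group that includes known repressors of APOBEC3B. Here 2 were higher and 6 lower at an unadjusted p-value under 0.05, against the same shares of all genes tested. At an adjusted p-value under 0.05, 1 was higher and 6 lower. The 10 genes for proteins that bind or regulate ADAR or inosine RNA also held no DEG. Of these, 2 were higher and 7 lower at an unadjusted p-value under 0.05, again against 19.6% and 22.0% of all genes tested. At an adjusted p-value under 0.05, 2 were higher and 5 lower. The median log2 fold changes of these lists were -0.14, -0.05 and -0.14.

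**Figure D4:**
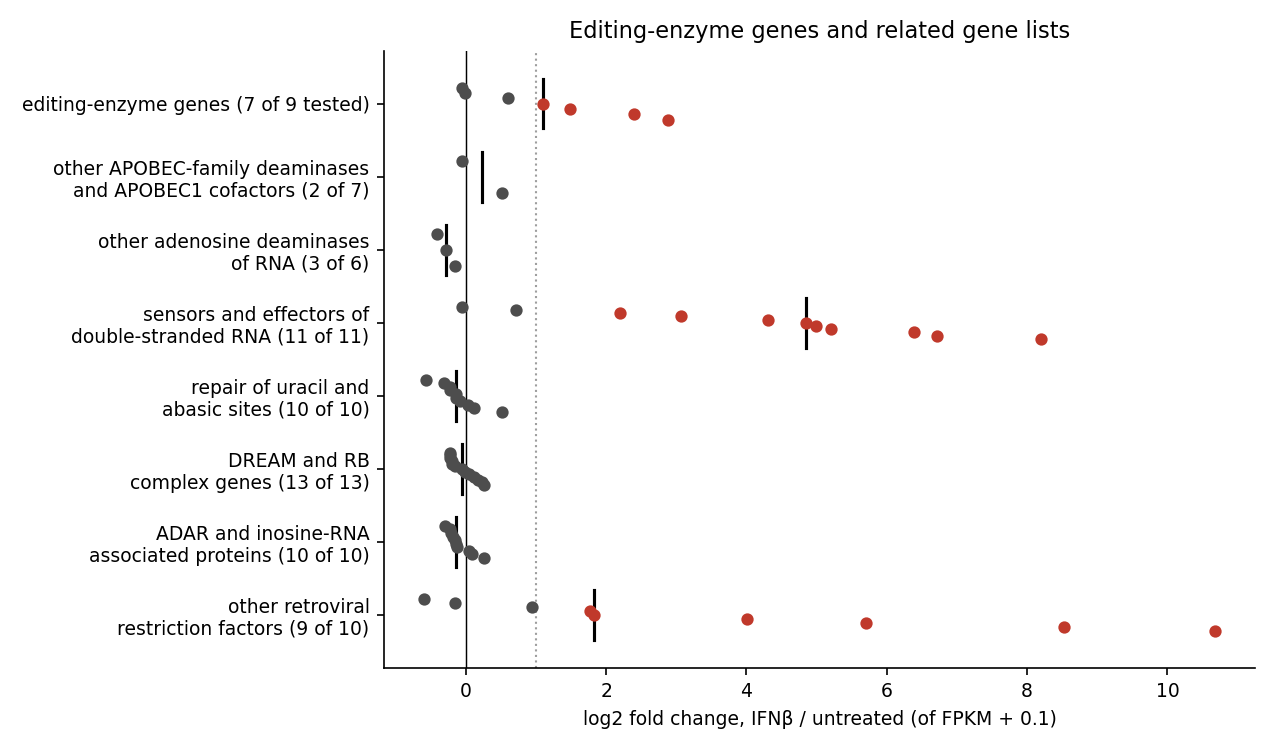
Log2 fold change (IFNβ over untreated, of FPKM + 0.1) of each tested gene (points, red where called higher) in the editing-enzyme set and in 7 related lists, with list medians as black bars, the fold threshold dotted and the tested share of each list in parentheses. The editing-enzyme genes lie between -0.06 and 2.88, the double-stranded RNA sensors reach 8.20, and the repair, DREAM and ADAR-associated lists hold no gene past the threshold.

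Over the 6 libraries, the genes whose log2 pattern was nearest to that of ADAR among 11990 genes with a mean of at least 1 FPKM were XRN1, which encodes a 5′ to 3′ exoribonuclease, SEMA3A, a semaphorin, and ZNFX1, a helicase-like protein. Their Euclidean distances were 0.044, 0.059 and 0.064 log2 units, and their levels differed, with XRN1 at 5.30 ± 0.0574 and 14.7 ± 0.155 FPKM and ZNFX1 at 15.8 ± 0.141 and 44.6 ± 0.973 FPKM (S.D., n = 3 each). Within a distance of 0.2, there were 15 genes for ADAR and 1066 for APOBEC3C, with ING2 and ZNF236 among the nearest.

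RefSeq promoter windows (GRCh38.p14, 300 bases that end 50 bases after a start) were found for ADAR (3 windows), ADARB1 (4) and APOBEC3H (1). None held GAAANNGAAA, the core of the interferon-stimulated response element, or TTCNNNGAA, the core of STAT sites, on either strand, and the windows do not cover the ADAR start at position 154608248. Among all 35116 windows, 3.57% held the first motif and 7.66% the second.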

How the data were processed

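Messenger RNA of HT1080 cells was sequenced as paired 150-base reads. FPKM per Ensembl gene and library were computed and deposited by the authors. Their processing notes name fastp, HISAT2, StringTie and GRCh38 without versions; annotation release and strand setting are not given in the sources used here. Fragments per gene were recovered from the deposited FPKM as the smallest whole multiples, gave 99.73% of each library's total and set its depth. Counting intervals cover counting error only.

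Groups followed the sample labels. IFNβ and untreated libraries were compared with limma (3.58.1, R 4.3.3; lmFit, eBayes with trend, no covariate) on log2(FPKM + 0.1), which understates changes of low genes, for genes with a mean of at least 0.1 FPKM. The procedure was tested on simulated data, whose changed genes had more expected fragments in untreated libraries than APOBEC3H had. It does not bear on calls at so few fragments. The authors used DESeq2 on counts; here the deposited FPKM were tested, with limma-voom on the recovered fragments as the count-based alternative. Annotations and sequences are those of GENCODE release 29; 4436 of the 62710 gene IDs are not in it, so the authors used another annotation. Alternatives covered pseudocount, filter, scaling, trend, thresholds, the replicate block, single libraries left out, limma-voom and gene lengths. Named genes were all members, up to 4 called genes per list with the largest change, flanking genes and nearest patterns; SYNCRIP, MAVS, CSF1R and other genes named besides were chosen after their values were seen. The members and lists were chosen with earlier results of these data known. Some genes that the rule names are not reported here.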

Additional observations from a re-analysis of the deposited data

How the results depend on the processing

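APOBEC3F, APOBEC3G and ADAR were called higher under all 18 alternatives, with log2 fold changes of 1.53 to 2.56, 2.04 to 3.04 and 1.45 to 1.52. The number of editing-enzyme genes called higher was 3 to 4 with single libraries left out and 5 with no fold threshold, where APOBEC3B was added, and none was called lower under any alternative. APOBEC3H lost its call with a pseudocount of 1, quantile normalization, an adjusted p-value under 0.01, the replicate block, and without untreated replicate 1 or IFNβ replicate 1, and it was not tested with a mean FPKM of at least 1. The estimate of APOBEC3C, -0.01, turned to 0.003 with equal FPKM totals, 0.027 with median ratio scaling, 0.002 with quantile normalization and 0.017 without IFNβ replicate 1, and ran from -0.047 to 0.057 with single libraries left out, highest without untreated replicate 2, all without a call.

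Over all genes tested, 722 were called higher and 153 lower. These counts were 278 and 26 with a pseudocount of 1, 365 and 60 where the filter was raised to a mean of 1 FPKM and 11996 genes remained, and 3153 and 3625 with no fold threshold. With an adjusted p-value under 0.01, 70 were lower. With single libraries left out, 661 to 716 were higher and 132 to 158 lower. Changed thresholds alter these counts by definition. With a pseudocount of 1 the same 20716 genes were tested, and a larger pseudocount shrinks the fitted changes of low genes. Apart from this and the smaller number of genes at the raised filter, causes were not tested. Of the 18 places in the 2 orders of levels, 4 changed with release 29 exon lengths and 0 to 2 without single libraries (APOBEC3D and APOBEC3H, without untreated replicate 2).

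With the replicate number as a block (replicate block), 684 genes were higher and 145 lower, and APOBEC3H had a limma adjusted p-value of 0.079. The deviations of same-numbered libraries had correlations of 0.053, -0.018 and 0.122 over 11996 genes, and not all libraries correlated best with their own number. Such correlations cannot decide whether same-numbered libraries share a culture or a day, and the labels do not say. Levels under 0.1 FPKM rest on few fragments, which limits APOBEC3A, APOBEC3D and APOBEC3H.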
